A study of Mus musculus with 4 samples.

Results

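The circadian clock genes Arntl, Clock, Per1, Per2, Per3, Cry1, Cry2, Nr1d1, Nr1d2 and Dbp were followed across 4 arrays of differentiating 3T3-L1 cells. They were chosen by name: every non-control probe whose gene name in the deposited files was one of the 10 was taken, which gave 18 of 41174 probes. All of the cultures were of 3T3-L1, an established line of mouse preadipocytes that turn into adipocytes after hormonal induction. Every culture was induced on day 0 with insulin at 10 µg/mL, dexamethasone at 1 µM and IBMX at 0.5 µM as the labels give it, and RNA was taken on day 2. The cultures differed in what was added to that medium, which was DMSO alone as the control, bilberry extract at 100 µg/mL, delphinidin at 100 nM or cyanidin at 100 nM. By the study's methods the additives were given in DMSO, which was at 0.1% in every culture. Each condition was hybridised to 1 Agilent one-color array, so the differences below have no replicates behind them and no test across samples was possible. The labels give the day of harvest but not the hour, so hour and treatment cannot be told apart.

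The mammalian clock is a feedback loop of transcription. CLOCK and BMAL1, the product of Arntl, bind E-boxes and activate the Period, Cryptochrome, Nr1d and Dbp genes, and the PER and CRY proteins then repress CLOCK and BMAL1. The REV-ERB proteins encoded by Nr1d1 and Nr1d2 repress Arntl through ROR elements, and DBP activates genes through D-boxes, so transcripts of the activating and repressing arms peak at different hours in a running clock. Glucocorticoids and agents that raise cAMP, both part of the adipogenic cocktail, are known to reset the clocks of cultured fibroblasts.

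Of the 10 genes, 9 had promoter windows in the RefSeq table of GRCm38.p6, running from 250 bases before to 50 bases after the start of transcription. Both strands of 32851 such windows were searched for the E-box CACGTG, the D-box TTATGTAA or TTACGTAA, the ROR element TAGGTCA or TAGGTTA, and the CRE TGACGTCA. The letters were chosen with the sequences in view. The 9 genes had 13 windows. The E-box was found in a window of Per1 and a window of Cry1, and in 7.15% of all windows. Another Per1 window, at chr11:69099902-69100201, held none of the motifs. The D-box was found in the window of Per3 and in 1.06% of all windows, and the ROR element in windows of Arntl and in 4.0% of all windows. The CRE was found in no window of these genes and in 1.79% of all windows. A match describes the letters only. A window of each gene with a match is printed to show the matched letters and their surroundings close to the start, with those letters in capitals and each read 5′ to 3′ on the strand of its gene. They lie at chr7:113207261-113207560 on the plus strand for Arntl, chr11:69098699-69098998 on the plus strand for Per1, chr4:151044616-151044915 on the minus strand for Per3 and chr10:85185005-85185304 on the minus strand for Cry1.
Arntl: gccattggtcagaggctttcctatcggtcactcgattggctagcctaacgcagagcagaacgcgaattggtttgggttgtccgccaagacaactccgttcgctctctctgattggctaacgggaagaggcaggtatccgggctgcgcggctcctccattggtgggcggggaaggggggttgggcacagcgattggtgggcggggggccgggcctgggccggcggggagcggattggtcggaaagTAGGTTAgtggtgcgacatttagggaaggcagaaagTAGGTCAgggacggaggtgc
Per1: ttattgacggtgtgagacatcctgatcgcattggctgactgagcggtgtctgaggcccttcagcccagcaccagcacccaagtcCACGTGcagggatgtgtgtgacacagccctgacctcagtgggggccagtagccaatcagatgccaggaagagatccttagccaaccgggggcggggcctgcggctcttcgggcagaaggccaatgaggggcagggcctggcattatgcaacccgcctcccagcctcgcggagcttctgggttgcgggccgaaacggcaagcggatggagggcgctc
Per3: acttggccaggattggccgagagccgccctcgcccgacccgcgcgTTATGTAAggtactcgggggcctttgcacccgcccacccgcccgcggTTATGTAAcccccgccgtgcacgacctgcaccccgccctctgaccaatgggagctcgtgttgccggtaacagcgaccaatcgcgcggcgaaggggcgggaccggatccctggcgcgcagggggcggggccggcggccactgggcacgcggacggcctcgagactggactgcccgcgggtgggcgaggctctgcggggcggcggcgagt
Cry1: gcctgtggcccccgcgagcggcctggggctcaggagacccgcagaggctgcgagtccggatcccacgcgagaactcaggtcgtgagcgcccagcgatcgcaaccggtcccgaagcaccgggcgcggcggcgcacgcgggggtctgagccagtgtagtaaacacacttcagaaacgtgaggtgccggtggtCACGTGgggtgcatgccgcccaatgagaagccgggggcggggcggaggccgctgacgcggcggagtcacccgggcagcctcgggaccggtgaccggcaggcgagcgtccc
The Arntl window held ROR elements from bases 245 and 281 (a second Arntl window, overlapping it at chr7:113207215-113207514, held TAGGTTA from base 291), and the Per3 window held TTATGTAA from bases 46 and 93, counted from 1 at the 5′ end. The E-boxes of Per1 and Cry1 lay upstream of the start. No match overlapped another motif.

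A level is given here as the log2 of a probe's background-subtracted signal over the 75th percentile of its array, so that 0 is the signal of a probe at that percentile. A log2 ratio is the difference of this level between 2 arrays. Levels of different probes were not set against each other, because probes differ in how brightly they bind. Every array gave a signal well above background for 17 of the 18 probes, none was saturated, and none was marked as an outlier. All 18 were spotted once. The error beside a ratio is therefore the spread of replicate spots of other probes of like brightness on the same arrays, and it covers the spots of an array only. A wider measure is the SD of the log2 ratio between probes of the same gene over all genes with several probes. It was 0.43 for bilberry, 0.25 for delphinidin and 0.30 for cyanidin against DMSO, and 0.23 for delphinidin against cyanidin. Probe positions are on mm8 as the files give them, and exons and UTRs were not assigned.

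The arrays differed in brightness, with 75th percentiles between 576 and 1016 signal units, and the bilberry array was the dimmest. After scaling, the median log2 ratio over 14369 genes was 0.16 for bilberry, -0.03 for delphinidin and -0.01 for cyanidin. A ratio of a clock gene in bilberry is therefore best read against 0.16. Of 8 adipocyte markers, 7 were detected on every array and Lep on none, and all 5 fibroblast and preadipocyte markers were detected throughout. The medians of the adipocyte markers were 0.02 for bilberry, 0.31 for delphinidin and 0.43 for cyanidin against DMSO. The bilberry values ran from -1.07 for Adipoq and -0.95 for Fabp4 to 0.39 for Plin1. The medians of the fibroblast and preadipocyte markers were -0.02, 0.04 and -0.19 for bilberry, delphinidin and cyanidin. Thy1 was lowest of them, at -1.20, -0.94 and -0.87, and Col1a1 was at 0.42, 0.15 and -0.19. The leukocyte markers Ptprc and Emr1, the endothelial markers Pecam1 and Cdh5 and the epithelial marker Epcam were above background on no array. Cd68 and the keratin gene Krt8 were detected on every array, and Krt8 was higher by 1.17, 1.80 and 1.06 on the log2 scale with bilberry, delphinidin and cyanidin. The part of these markers in the results below was not tested. In RNA from whole cultures, fewer cells of a type and less RNA per cell cannot be told apart.

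Dbp, the D-box activator and an output of the loop, stood at 2.61 in DMSO, 1.70 in bilberry, 0.95 in delphinidin and 1.59 in cyanidin (probe at chr7:45577937-45577996). It was highest in the control and lowest with delphinidin, while bilberry and cyanidin lay close together, except that bilberry was lowest under scaling to spike-in controls, RNAs added to each sample for labeling. The log2 ratio to DMSO was -0.92 ± 0.06 (spot SD) for bilberry, -1.67 ± 0.05 for delphinidin and -1.03 ± 0.05 for cyanidin. These are levels 1.89, 3.18 and 2.04 times lower than the control. Under delphinidin the Dbp probe ranked 94 from the lowest ratio of 23368 probes well above background on both arrays. Dbp kept its direction in all 3 treatments under each of the alternative settings, between -2.46 and -0.90 for bilberry, -1.71 and -1.41 for delphinidin, and -1.09 and -0.79 for cyanidin. It was the sole clock gene past 2-fold with cyanidin, and came within 2-fold there under spike-in scaling and after subtraction of the local median.

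Nr1d1, which encodes REV-ERBα, had 3 probes. The brightest lay at -1.49 in DMSO, -2.32 in bilberry, -2.92 in delphinidin and -1.85 in cyanidin. As with Dbp, the control array was highest and the delphinidin array lowest, with bilberry lowest under spike-in scaling. The ratios were -0.84 ± 0.14 (spot SD) for bilberry, -1.44 ± 0.12 for delphinidin and -0.36 ± 0.12 for cyanidin, and the delphinidin value ranked 142 from the lowest of 23368. This probe spans 503 bases of genome, chr11:98585302-98585804. The second probe, at chr11:98588108-98588167, gave -0.33, -0.64 and -0.27 in the same order, and the third and dimmest, at chr11:98588628-98588687, gave -0.40, -0.06 and -0.22. The 3 probes had the same sign in every treatment but differed in size, the mean over the 3 for delphinidin being -0.71, within 2-fold, and the low delphinidin value was not seen by the dimmest, whose spot SD was 0.47.

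Nr1d2, encoding the related REV-ERBβ, was measured by 1 probe at chr14:16997805-16997864. Its levels were -0.98 in DMSO, -1.55 in bilberry, -1.81 in delphinidin and -1.18 in cyanidin. The order of the 4 arrays was the same as for the brightest Nr1d1 probe, again with bilberry lowest under spike-in scaling. The ratios to DMSO were -0.56 ± 0.09 (spot SD), -0.82 ± 0.07 and -0.19 ± 0.07, none of them past 2-fold. The bilberry values of Nr1d1 and Nr1d2 turned above 0 under normexp with an offset of 50, a background correction that fits a model of signal plus background to each array, and were below 0 under the other settings, and the cyanidin value of Nr1d2 turned above 0 under spike-in scaling.

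Among the Period genes, which encode partners of the cryptochromes in the repressor complex, Per3 varied most between arrays. Its single probe at chr4:149848947-149849006 stood at -3.71 in DMSO, -5.46 in bilberry, -4.52 in delphinidin and -3.57 in cyanidin. Cyanidin and DMSO lay together, delphinidin below them and bilberry lowest. The ratios were -1.75 ± 0.35 (spot SD) for bilberry, -0.80 ± 0.33 for delphinidin and 0.15 ± 0.32 for cyanidin. The probe was dim on each array, and its bilberry ratio turned to 1.59 under normexp with an offset of 50, where the background mean fitted to the bilberry array was -345 and those of the other arrays lay between -6.15 and -3.88. With the fit repeated without marked background spots that mean was -5.65 and the Per3 ratio -0.26, so its size with bilberry depends on the background correction.

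Per1, an immediate target of glucocorticoid and cAMP signals, was at 2.57 in DMSO, 2.84 in bilberry, 2.37 in delphinidin and 2.31 in cyanidin (probe at chr11:68925571-68925630). The ratios were 0.27 ± 0.06 (spot SD), -0.20 ± 0.05 and -0.26 ± 0.05, each smaller than the SD between probes of a gene for its comparison. The bilberry value turned below 0 under normexp with an offset of 50 and under spike-in scaling, and the delphinidin value turned above 0 under spike-in scaling. Of 6 glucocorticoid targets, 5 had a probe and none passed 2-fold in any comparison, where 11.1%, 2.64% and 2.5% of all genes did so against DMSO, with medians of 0.23 for bilberry, 0.00 for delphinidin and -0.01 for cyanidin. Of 7 cAMP targets none passed 2-fold, with medians of 0.01, -0.13 and -0.34.

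Per2, another Period gene, gave levels of -1.07 in DMSO, -0.77 in bilberry, -0.87 in delphinidin and -1.28 in cyanidin at its brighter probe, chr1:93246875-93246934. The 4 arrays lay within a range of 0.51. The ratios were 0.30 ± 0.07 (spot SD) for bilberry, 0.21 ± 0.06 for delphinidin and -0.21 ± 0.06 for cyanidin, all smaller than the SD between probes of a gene. The bilberry value turned below 0, and the cyanidin value above 0, under spike-in scaling. The dimmer probe, at chr1:93270367-93270426, gave 1.17 ± 0.30, -0.22 ± 0.28 and -0.55 ± 0.27. It passed 2-fold with bilberry and had the opposite sign to the brighter probe with delphinidin. As a mean over both probes the delphinidin value turned to -0.01.

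The cryptochrome genes encode the main repressors of CLOCK and BMAL1. The brighter Cry1 probe, at chr10:84573549-84573608, stood at -4.00 in DMSO, -4.14 in bilberry, -3.42 in delphinidin and -4.26 in cyanidin. The delphinidin array was the highest and the other 3 lay close together. The ratios were -0.14 ± 0.30 (spot SD), 0.58 ± 0.28 and -0.26 ± 0.27, of which bilberry turned above 0 under normexp, with and without refitting, and as a mean over both probes. The dimmer Cry1 probe, at chr10:84561785-84561844, was well above background with delphinidin and cyanidin and on neither of the other arrays, which gives a level at least 1.35-fold higher with delphinidin than in DMSO. That bound sets the delphinidin level against the lowest level of any probe well above background on the DMSO array. It leaves out the spot SD of this log2 ratio, which was 0.63.

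Cry2 lay at -0.34 in DMSO, -0.00 in bilberry, -0.45 in delphinidin and -0.26 in cyanidin at its brighter probe, chr2:92205045-92205104. The ratios of 0.34 ± 0.07 (spot SD), -0.11 ± 0.06 and 0.08 ± 0.06 were within the SD between probes of a gene. Spike-in scaling turned the bilberry value below 0 and the delphinidin value above 0, and the mean over both probes turned the cyanidin value below 0. The dimmer probe, which spans 2266 bases at chr2:92214765-92217030, gave 0.83 ± 0.42, 0.01 ± 0.38 and -0.09 ± 0.37.

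**Figure D1:**
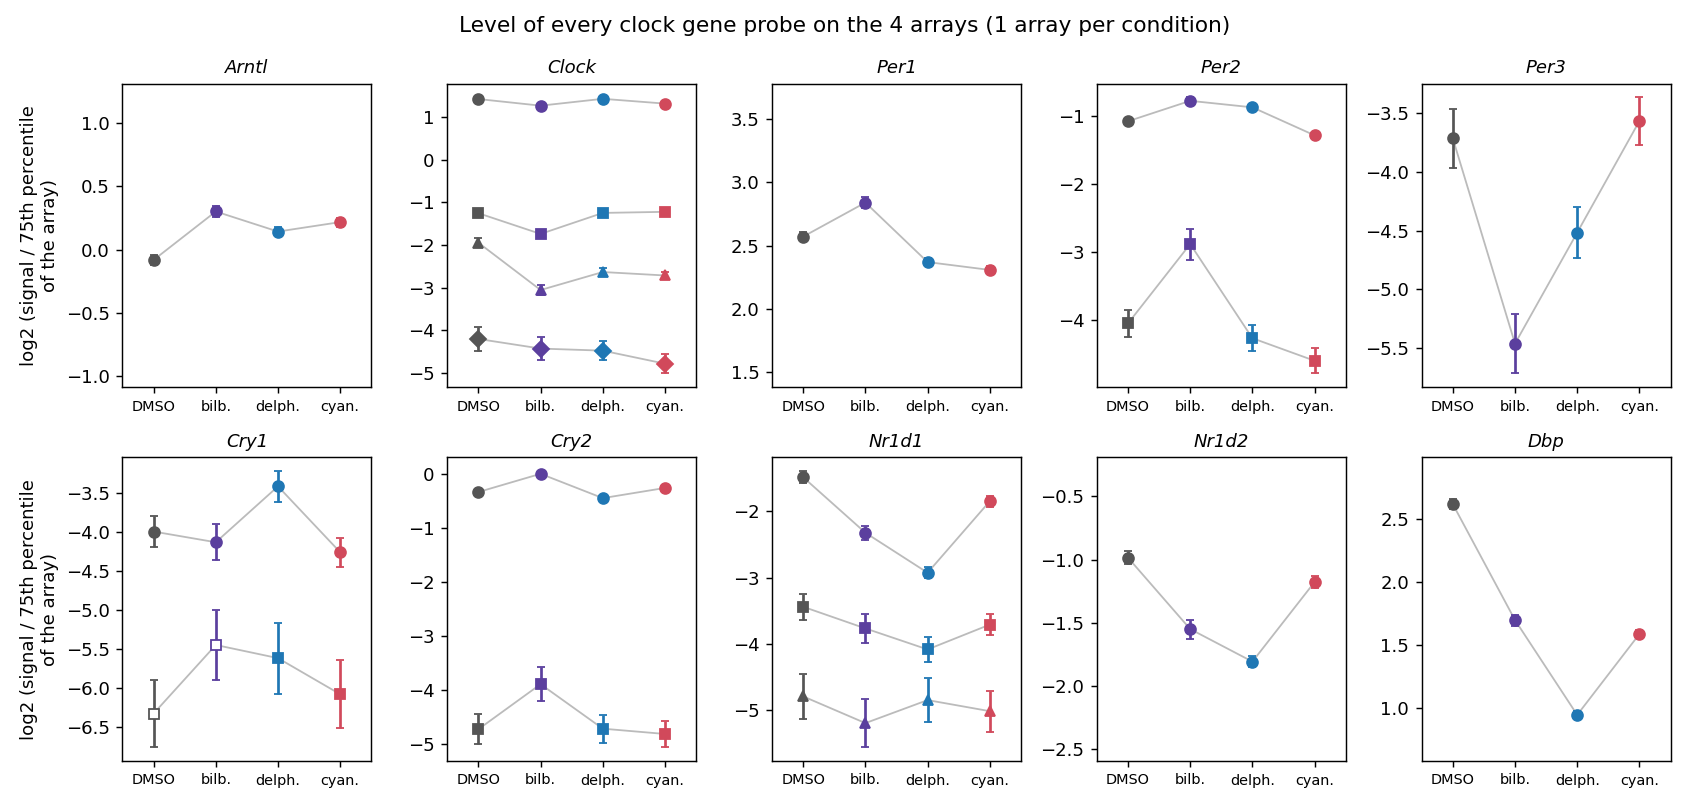
Level of each clock gene probe (log2 of signal over the 75th percentile of its array, y axis scaled separately for each gene) on the DMSO, bilberry, delphinidin and cyanidin arrays, with 1 marker shape per probe, bars for the SD of replicate spots of like brightness, and open symbols for signal not clear of the background. Dbp, Nr1d1 and Nr1d2 are highest in DMSO and lowest in delphinidin at their brightest probes (bilberry is lowest under spike-in scaling, and exceeds DMSO for Nr1d1 and Nr1d2 under normexp with an offset of 50), whereas the brightest Clock probe stays within a range of 0.16.

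On the activating side, Arntl was measured by 1 probe at chr7:113104645-113104704 and stood at -0.08 in DMSO, 0.30 in bilberry, 0.14 in delphinidin and 0.22 in cyanidin. The control array was the lowest, and the treated arrays lay close together. The ratios were 0.38 ± 0.06 (spot SD) for bilberry, 0.22 ± 0.05 for delphinidin and 0.30 ± 0.05 for cyanidin. They were larger than the spread of replicate spots and about as large as, or smaller than, the SD between probes of a gene. The delphinidin and cyanidin values were above 0 under each alternative, from 0.20 to 0.48 and from 0.25 to 0.53, whereas the bilberry value turned to -1.16 under spike-in scaling.

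Clock had 4 probes. The brightest, at chr5:77287127-77287186, varied least of the 10 genes, at 1.43 in DMSO, 1.27 in bilberry, 1.43 in delphinidin and 1.32 in cyanidin. Its ratios were -0.16 ± 0.06 (spot SD), 0.01 ± 0.05 and -0.11 ± 0.05. The delphinidin value changed sign under quantile normalization and in the mean over all probes, and the cyanidin value under spike-in scaling and after subtraction of the local median. A neighbouring probe at chr5:77287523-77287582 gave -0.49, 0.01 and 0.03. The other two probes lie nearer the 5′ end of the gene, which is on the minus strand. The probe at chr5:77310328-77310387 stood at -1.94 in DMSO, -3.05 in bilberry, -2.63 in delphinidin and -2.71 in cyanidin. It was highest in the control, with ratios of -1.11 ± 0.16, -0.69 ± 0.14 and -0.77 ± 0.13, and passed 2-fold with bilberry. The probe at chr5:77329160-77329219 was dim and gave -0.23 ± 0.38, -0.27 ± 0.36 and -0.58 ± 0.36. The probes of Clock therefore disagreed, by more than the spread of replicate spots, and the probe past 2-fold is filed under another transcript record than the other 3. Whether they detect the same transcripts was not tested.

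By the brightest probe, the range over the 4 arrays was 1.90 for Per3, 1.67 for Dbp and 1.44 for Nr1d1. It was 0.84 for Cry1 and 0.82 for Nr1d2, which did not differ beyond their spot spread, and between 0.45 and 0.53 for Cry2, Per2 and Per1. It was 0.38 for Arntl and 0.16 for Clock. The ranges of Per3 and Dbp differed by less than the spot SD of the Per3 ratios, and that of Per3 rests on its bilberry value, which moved with the background correction. The 3 genes nearest in pattern to Per3 were Rasgrp3, NAP020861-001 and Abcg4, with root mean square differences of 0.197, 0.205 and 0.227 over 3 log2 ratios among 14368 genes. The 3 ratios share the DMSO array. Each of these differences was smaller than the spot SDs of the Per3 ratios, which lay between 0.32 and 0.35. Which genes come nearest is therefore not resolved from spot noise, and it also rests on the bilberry value of Per3.

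Counted over probes well above background on both arrays, 3 of 17 clock gene probes were past 2-fold with bilberry, against 11.2% of all probes. They were the dimmer Per2 probe, which was higher (4.3% of all probes), and the Per3 probe and 1 Clock probe, which were lower (6.93% of all probes). With delphinidin 2 of 17 were past 2-fold, both lower, against 2.91% of all probes, and these were Dbp and the brightest Nr1d1 probe. Of all probes 1.84% were that much lower. With cyanidin 1 of 17 was past 2-fold, against 2.83% of all probes, and this was Dbp, where 2.23% of all probes were that much lower. At 1.5-fold 6 of 17 were called with bilberry, 6 with delphinidin and 2 with cyanidin, against 33.2%, 11.0% and 11.4% of all probes. All 3 comparisons share the DMSO array. The median log2 ratio over the 10 genes was -0.15 for bilberry, -0.16 for delphinidin and -0.20 for cyanidin, beside 0.16, -0.03 and -0.01 over all genes. The bilberry median turned above 0 under both normexp settings. Under spike-in scaling the delphinidin median turned to 0.10 and the cyanidin median to 0.03, a scaling that also raised the medians of all genes there. The count with bilberry lies near its background share and moves from 0 to 15 with the background correction and scaling.

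**Figure D2:**
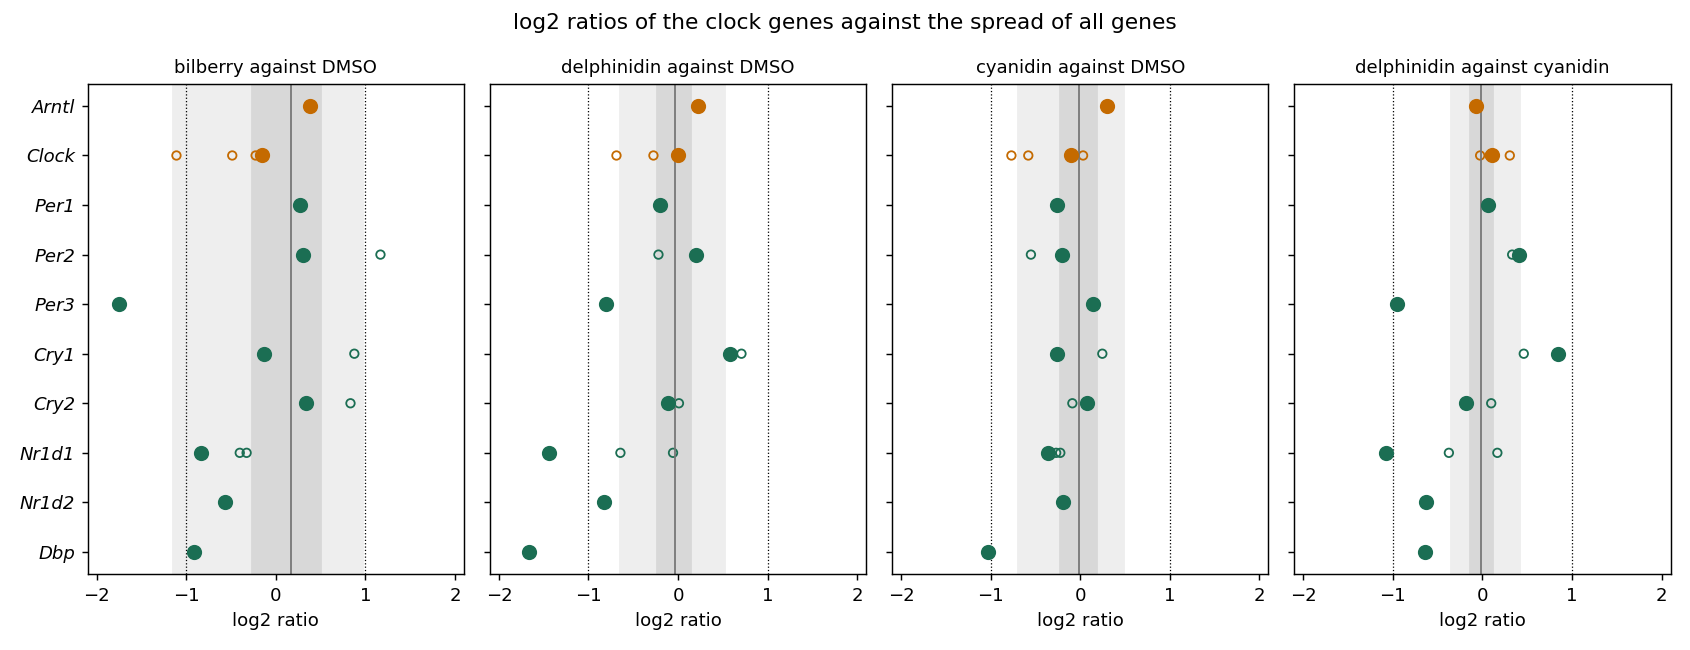
Log2 ratio of each clock gene for bilberry, delphinidin and cyanidin against DMSO and for delphinidin against cyanidin (1 panel each), with the brightest probe filled and other probes open, activators in orange and repressors and outputs in green. Grey bands span the 25th to 75th and the 5th to 95th percentiles of 14369 genes, the line is their median and dotted lines mark 2-fold. Against DMSO, Dbp lies at -0.92, -1.67 and -1.03, and Arntl at 0.38, 0.22 and 0.30, of which the bilberry value of Arntl turns below 0 under spike-in scaling.

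Whether the 2 arms of the loop moved apart was read from the median of Arntl and Clock and the median of the 8 repressors and outputs. With delphinidin the activators had a median log2 ratio of 0.12 and the repressors and outputs -0.50, a difference of 0.62. The difference was 0.46 with bilberry, from medians of 0.11 and -0.35, and 0.33 with cyanidin, from medians of 0.10 and -0.24. Differences of this kind are the same under any scaling of a whole array. With delphinidin both activators were above the median of all genes and 6 of 8 repressors and outputs below it, Per2 and Cry1 being above. With bilberry and with cyanidin Arntl was above that median and Clock below it, and 5 and 6 of the 8 repressors and outputs were below it. The Clock value with delphinidin was 0.04 above the median, which is smaller than its spot SD. The lowest delphinidin ratios were those of Dbp, Nr1d1, Nr1d2 and Per3, and the Period and Cryptochrome genes did not share a direction.

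The difference between arms depended on which genes were counted. With Tef, Hlf, Ciart, Bhlhe40 and Bhlhe41 added to the repressors and outputs, a choice made after seeing the data, it was -0.16 for bilberry, 0.23 for delphinidin and 0.15 for cyanidin. Arntl2, an E-box activator that was lower than DMSO on each treated array, was not added to the activators. Its log2 ratios were -0.68 with delphinidin and -0.86 with cyanidin, opposite in sign to those of Arntl. The arm difference with Arntl2 counted was not computed. Without Cry1, which is driven from both arms, it was 0.68 for bilberry, 0.92 for delphinidin and 0.30 for cyanidin. Under normexp with an offset of 50 the bilberry difference turned to -0.52, and with the fit repeated without marked background spots it was 0.086.

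**Figure D3:**
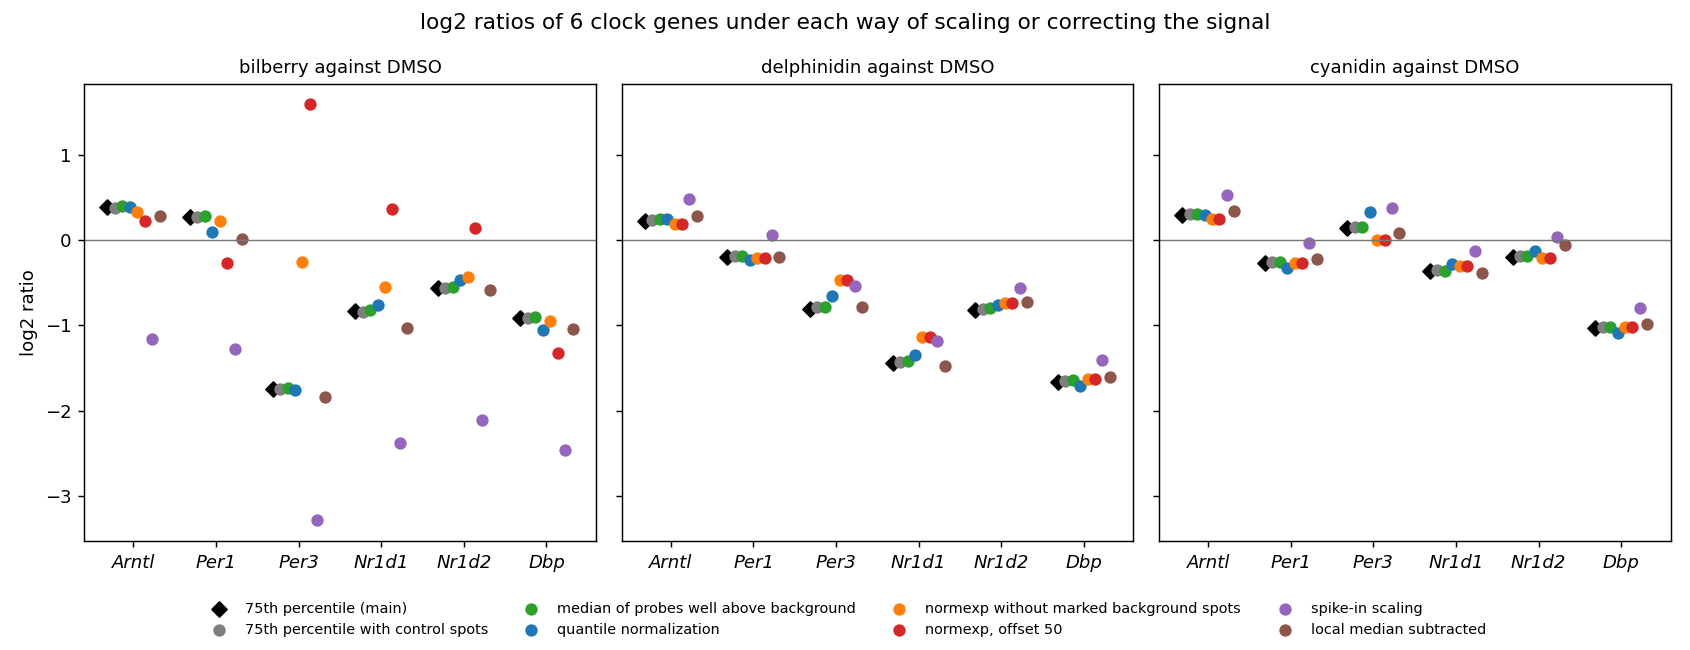
Log2 ratios of Arntl, Per1, Per3, Nr1d1, Nr1d2 and Dbp to DMSO for bilberry, delphinidin and cyanidin, by the brightest probe, with 1 color for each way of scaling or correcting the signal. Dbp stays below 0 throughout, between -1.71 and -1.41 for delphinidin, whereas the bilberry value of Per3 runs from -3.29 under spike-in scaling to 1.59 under normexp with an offset of 50.

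Delphinidin and cyanidin are anthocyanidins that differ by a hydroxyl group, which delphinidin carries in addition on its B ring. They were compared at the same dose and day, as 1 pair of arrays, so no interval or test of a difference was possible. Of 18 clock gene probes 1 was past 2-fold between them, against 1.16% of all probes, or 0.498% in that direction, and 5 were past 1.5-fold, against 4.4%. This was the brightest Nr1d1 probe, lower with delphinidin by a log2 ratio of -1.08 ± 0.11 (spot SD), although Nr1d1 came within 2-fold under both normexp settings and as a mean over its probes, at -0.43. Per3 was at -0.95 ± 0.30, Dbp at -0.64 ± 0.04 and Nr1d2 at -0.63 ± 0.07, all lower with delphinidin and all within 2-fold. Cry1 was at 0.84 ± 0.27 and Per2 at 0.41 ± 0.06, both higher with delphinidin. Arntl at -0.07, Clock at 0.11, Per1 at 0.06 and Cry2 at -0.19 lay within the SD of 0.23 between probes of a gene, which does not show that the compounds act alike on them. The other Nr1d1 probes gave -0.37 ± 0.25 and 0.17 ± 0.45, so the brightest was not matched in size by either. The median over the 10 genes was -0.13, beside -0.02 over all genes, and the activators minus repressors and outputs difference was 0.43.

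**Figure D4:**
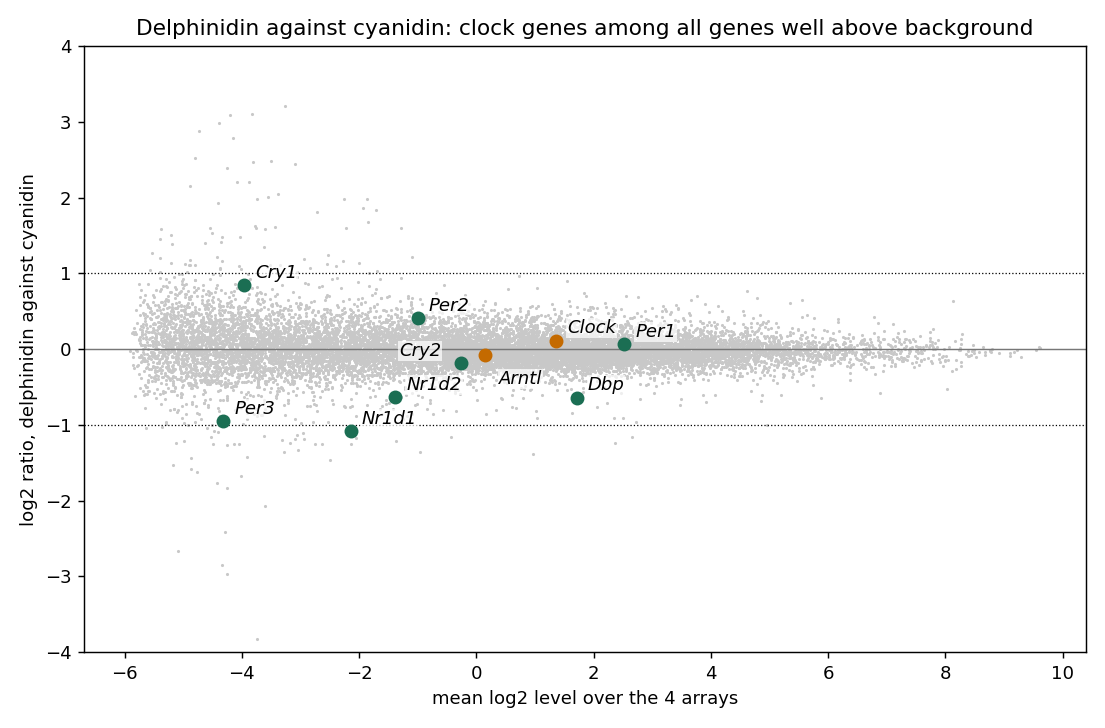
Log2 ratio of delphinidin against cyanidin plotted against the mean log2 level over the 4 arrays for all 14369 genes (grey) and the clock genes by their brightest probe (orange, activators, and green, repressors and outputs), with dotted lines at 2-fold. Nr1d1 at -1.08, Per3 at -0.95, Dbp at -0.64 and Nr1d2 at -0.63 lie low, and Cry1 at 0.84 lies high.

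The wider clock was followed through 27 further genes, of which 23 had a brightest probe detected on every array and 2, Npas2 and Rorb, on none. With bilberry 2 of the 23 were past 2-fold, both higher, against 11.1% of all genes taken by their brightest probe. The PAR bZIP factor Hlf, a relative of Dbp, went from -3.81 in DMSO to -2.14 in bilberry, a ratio of 1.67, and stood at -2.97 in delphinidin and -3.44 in cyanidin. Ciart, a repressor of CLOCK and BMAL1, was at -5.81 in DMSO, -3.46 in bilberry, -5.03 in delphinidin and -5.50 in cyanidin, a ratio of 2.35 for bilberry. The DMSO level of Ciart lay near the lowest level well above background on that array, -6.05. No spot SD is given for the further genes. Hlf and Ciart were both highest on the bilberry array, except under spike-in scaling, where delphinidin was higher. Under that scaling the bilberry ratios were 0.13 for Hlf and 0.81 for Ciart, both within 2-fold. Dbp was below the control with bilberry under each setting. The Ciart ratio of 0.31 with cyanidin turned below 0 under both normexp settings. Its ratio of 0.78 with delphinidin fell as low as 0.00 among the alternatives. Arntl2, a paralog of Arntl, was not well above background with bilberry. Set against the lowest level of any probe well above background on that array, it was at least 2.02-fold lower there than in DMSO. That bound leaves out the spot spread. Arntl2 was also lower with delphinidin and cyanidin, at log2 ratios of -0.68 and -0.86, and was not followed under the alternative settings.

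With delphinidin 1 of the 23 was past 2-fold, against 2.64% of all genes, and with cyanidin none was, against 2.5%. The delphinidin gene was Wee1, a cell cycle kinase gene and clock output. Its single probe was at -4.69 in DMSO, -4.38 in bilberry, -2.13 in delphinidin and -4.34 in cyanidin. Delphinidin was highest of the 4 arrays under the 75th percentile scaling, with a ratio of 2.56 to DMSO and of 2.21 to cyanidin, the latter against 0.849% of all genes past 2-fold. Under normexp with an offset of 50 these ratios were 1.44 and 1.36. The bilberry ratio of Wee1 was 0.31 under the 75th percentile scaling and 2.13 under that normexp setting. The background mean fitted there to the bilberry array was -345, and -5.65 with the fit repeated without marked background spots. The remaining PAR bZIP gene Tef had ratios of 0.13, -0.25 and 0.02 with bilberry, delphinidin and cyanidin, so the 3 genes of that family, Dbp, Hlf and Tef, did not share a pattern. Nfil3, the D-box repressor, gave 0.48, -0.36 and -0.17. The E-box repressors Bhlhe40 and Bhlhe41 gave 0.46 and 0.86 with bilberry and lay between -0.12 and 0.12 with the anthocyanidins. Rora, an activator of Arntl through ROR elements, had ratios of -0.47, -0.17 and -0.43 in the same order. The bilberry value of Bhlhe41 was 2.29 under normexp with an offset of 50, with the same fitted background mean of -345. The bilberry signs of Tef, Nfil3, Bhlhe40 and Bhlhe41 turned under spike-in scaling, and those of Tef, Nfil3 and Rora under normexp with an offset of 50. Some of the smaller anthocyanidin values of these 5 genes also changed sign under spike-in scaling, quantile normalization, normexp or subtraction of the local median, the last of which also turned the bilberry value of Tef. The alternatives for these further genes were chosen after seeing the data.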

How the data were processed

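RNA from 4 cultures, 1 per condition, was labeled with 1 dye and hybridised to Whole Mouse Genome arrays of 60-base probes. The authors deposited the scanner output of the Feature Extraction software, in which each spot has an intensity with local background subtracted. Their methods then divide each array by its 75th percentile in GeneSpring, a step not in the deposited values and done here over the 43379 non-control spots of each array. Spots marked as outliers were left out, and log2 was taken. A deposited table of the series, also in intensity, served as an alternative. Each gene was represented by its probe of highest mean signal, and past 2-fold means a linear ratio over 2 or under 0.5, with both arrays well above background. Spot SDs came from the 50 probes nearest in brightness among 245 spotted 10 times. The number of arrays, 1 per condition, limits the precision. The named genes were all 10 members with every probe, and from a list of 27 further clock genes those past 2-fold and the bZIP, ROR and E-box factors. The list leaves out 2 genes that are not reported here, and its unnamed genes enter the counts only. Members and lists were chosen with earlier results of these data known. Names were also matched through RefSeq accessions for 24375 probes. Alternatives covered background correction, normalization, position, marked spots, filters, threshold, probe and arm membership. The calculations were tested on simulated data. Python 3.11.15, numpy 2.4.6, pandas 2.3.3, matplotlib 3.10.9, R 4.3.3 and limma 3.58.1 (normexp only) were used.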

Additional observations from a re-analysis of the deposited data

Results flagged for a closer look

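The spike-in control probes, which detect RNAs added to each sample and are not part of the clock gene comparisons, were brighter with bilberry than with DMSO by 0.96 in median log2 signal, a signal outside the gene measurements and above the control. The same difference was -0.03 for delphinidin and 0.00 for cyanidin.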

How the results depend on the processing

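Counts, medians, arm differences and gene ratios were computed again under the alternatives that apply to each. No paired analysis was possible because each condition had 1 array, and no array could be left out for the same reason. Under normexp with an offset of 50, 8 clock gene probes were past 2-fold with bilberry, the median there was 0.29, the activators minus repressors difference -0.52 and Per3 1.59, and no probe was past 2-fold between delphinidin and cyanidin. With normexp refitted without marked background spots, 0 probes were past 2-fold with bilberry and 0 between delphinidin and cyanidin. Spike-in scaling gave 15 probes and a median of -1.69 with bilberry, a median of 0.10 with delphinidin and 0 probes with cyanidin, where subtraction of the local median also gave 0. Spike-in scaling moved the median of all genes by -1.54 in bilberry, 0.26 in delphinidin and 0.23 in cyanidin. At 1.5-fold the counts were 6, 6 and 2 with bilberry, delphinidin and cyanidin and 5 between the last pair. The difference between arms was 0.92 with delphinidin without Cry1, and 0.11, 0.12, -0.049 and 0.015 with Npas2 and further repressors and outputs for bilberry, delphinidin, cyanidin and delphinidin against cyanidin (0.43 with the 10 genes), where Npas2 was above background on no array. Without Npas2, a choice made after seeing the data, it was -0.16 with bilberry, 0.23 with delphinidin, 0.15 with cyanidin and 0.078 for delphinidin against cyanidin. The alternatives for genes outside the 10 were chosen after seeing the data. Per3 and Cry1 lie close to background, and of the 10 genes their bilberry ratios moved most under normexp with an offset of 50.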
